A study of Ovis aries with 10 samples.

Results

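The adrenal gland of the saline-injected sheep fetus was described from 5 control RNA-seq libraries of the 10 libraries in the study. Each control library came from the adrenal gland of a fetus (Ovis aries) at 102 days of gestation, and the treatment label of all 5 was a saline injection. Controls 1, 3 and 5 were labelled female and controls 2 and 4 male. The other libraries, from endotoxin-injected fetuses of the same gestational age, are not described here. The libraries were chosen by their treatment label alone. No label states a breed, a route of injection, or whether libraries came from separate ewes, so the spread and the p-values below measure differences between these 5 samples only.

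The adrenal gland joins a pair of organs of different embryonic origin. Its cortex, of mesodermal origin, takes up cholesterol and converts it to glucocorticoids and mineralocorticoids under the control of pituitary corticotropin (ACTH) and angiotensin. Its medulla, of neural crest origin, makes catecholamines and stores them with acidic granule proteins and peptides in chromaffin cells. In the sheep fetus, cortisol from the cortex is known for its part in organ maturation and in the onset of labour.

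Levels of named genes were taken from the authors' deposited mean of the group read as control, in TPM, a unit in which reads are divided by transcript length and scaled to the same total in every library, so that genes may be ranked against each other. These are the authors' group means and carry no SD or n. The 5 libraries themselves were deposited under gene identifiers (IDs) of the Ensembl cattle form without symbols, which could not be joined to the named rows. Values per library, and their errors, are therefore given for IDs and for sums over IDs. A level of 1 TPM or more was called detected.

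The 5 libraries held between 12494386 and 18324516 estimated counts, with a median of 15542124. Between 14185 and 14595 of 20781 IDs were detected per library, 13596 (65.4%) were detected in all 5, and 2688 were at 0 in all 5. At these depths a count of 0 allowed up to 3 counts, or 0.164 to 0.240 CPM (counts scaled by the total of the library), which covers counting error only. Pearson's r of log2(TPM + 1) between libraries lay between 0.977 and 0.988 over the 10 pairs (median 0.982), a description across IDs. Every pair of libraries differed by far more than counting noise, with chi-square values per degree of freedom between 26.3 and 65.3, so none was a copy of another. This does not show that they came from different fetuses. In TPM, control 5 stood apart from the other 4 in several measures that are given with the spread below. Its mean r with the other libraries was 0.9808, close to 0.9812 for control 3 and 0.9813 for control 4.

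The markers given for the gland were all present, for cortex and medulla alike. CYP11B1, HSD3B1, STAR and FDX1 on the cortical side, and CHGA, TH and PNMT on the medullary side, each stood between 330 and 4096 TPM, against a median of 8.23 TPM over the 13881 rows with a symbol. All 7 thus ranked within the highest 449 of 19316 rows. Cortex and medulla were thus both represented in the tissue that was sequenced. In bulk tissue, fewer cells of a type and less RNA per cell cannot be told apart, so the levels below do not give proportions of cells.

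Among rows with a symbol, the control transcriptome was led mostly by genes of protein synthesis and respiration, with the granule gene CHGA at rank 29 of all rows. In the authors' means, 14462 rows (74.9%) were detected, 1304 rows reached 100 TPM and 160 rows reached 1000 TPM. Those 160 rows held 45.8% of all TPM. The highest row, which has a transcript ID and no symbol, alone held 5.19% with 51882 TPM. No ID of the per-library table came near this level, the highest averaging 24807 TPM, so the named levels are not means of the per-library values as deposited. The tables list different features, 19316 rows against 20781 IDs, and levels are compared only within each. Rows without a symbol held 42.4% of all TPM and made up 6 of the 10 highest rows, so the ranking of named genes leaves out much of the most abundant RNA.

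The highest named gene was TPT1, a growth-related cytosolic protein abundant in most tissues, at 9230 TPM and rank 4 of all rows. Ribosomal proteins took up 9 of the 20 highest named places, among them RPS28 at 7435 TPM, RPL23A at 7064, RPS21 at 6464, RPS14 at 5575, RPL23 at 4297, RPS18 at 3964, RPL19 at 3439 and RPL34 at 3305. The genes encoded by the mitochondrial genome took up 5 places, with the cytochrome oxidase subunits COX3, COX2 and COX1 at 5043, 4787 and 4667 TPM, the complex I subunit ND3 at 4296 and the ATP synthase subunit ATP6 at 4232. ATP5F1E, a nuclear subunit of ATP synthase, was at 4939 TPM. FTH1, the iron-storing heavy chain of ferritin, was at 4155 TPM. The remaining 3 places belonged to genes that mark tissue type: MGP, an extracellular matrix protein that limits calcification, at 4885 TPM, and the chromogranins CHGA and CHGB at 4096 and 3193 TPM.

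Among the 78 named rows at 1000 TPM or more, 18 were ribosomal proteins, which together held 6.11% of all TPM. A further 11 were encoded by mitochondrial DNA (3.40%) and 9 were nuclear subunits of the respiratory chain or ATP synthase (1.59%). The 3 steroid-synthesis rows in this range held 0.433% of all TPM, the 2 granule proteins 0.729% and the catecholamine gene TH 0.125%. All 13 protein-coding genes of the mitochondrial genome were measured, from ND5 at 575 TPM to COX3, and summed to 35405 TPM (3.54%). Of the 24 named subunits and accessory proteins of the vacuolar proton pump, which acidifies secretory granules and lysosomes, ATP6V0C at 1837 TPM and ATP6V1G1 at 1089 TPM were the 2 above 1000 TPM. Among 9 genes often used as references, TPT1 was followed by the ubiquitin gene UBB at 2454 TPM, B2M, the light chain of MHC class I, at 2120 TPM and the cytoskeletal actin ACTG1 at 1130 TPM. All 42 named proteasome subunits and assembly factors were detected, with a median of 48.1 TPM. Of 29 HOX genes, which set position along the body axis, 21 were detected, with HOXC4 highest at 53.3 TPM. Genes of tissues outside the gland's lineage lay at the other end of the ranking. All 25 olfactory receptor rows were under 1 TPM, 8 of them listed at 0, and 5 of 31 keratin rows reached 1 TPM. These symbol families were chosen after the values were seen.

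**Figure D1:**
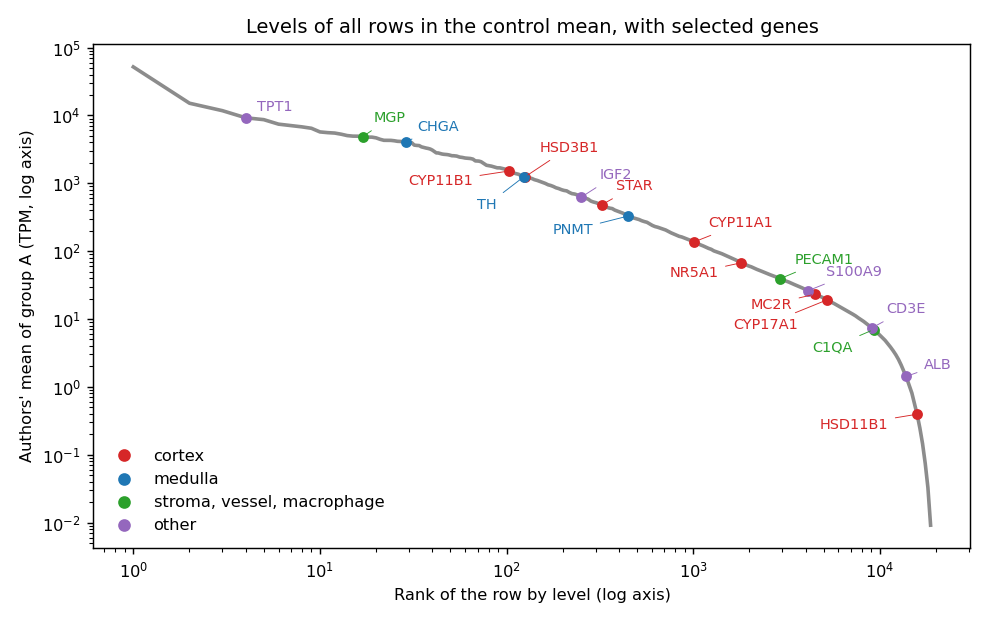
Level of every row in the authors' control mean (TPM, log axis) against its rank (log axis), as a grey line, with selected genes of cortex, medulla, stroma and other classes as points. MGP and CHGA sit at ranks 17 and 29, CYP11B1, HSD3B1 and TH between ranks 99 and 125, and HSD11B1 near the bottom at rank 15816 of 19316.

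Among the steroid genes found, the highest rows were those of the last step to cortisol. CYP11B1, the mitochondrial 11-beta-hydroxylase that makes cortisol from 11-deoxycortisol, appeared in 2 rows at 1580 and 1516 TPM, ranks 99 and 103. How reads were divided between these rows is not known, and CYP11B2, a close relative, was not found under its symbol, so each row's level is uncertain. HSD3B1, the 3-beta-hydroxysteroid dehydrogenase that turns pregnenolone into progesterone, was at 1235 TPM. FDX1, the ferredoxin that carries electrons to the mitochondrial P450 enzymes, was at 580 TPM, 5.23 times its reductase FDXR at 111 TPM. STAR, which moves cholesterol into mitochondria, was at 481 TPM. CYP11A1, which cleaves the side chain of cholesterol and so starts the pathway, stood lower at 137 TPM.

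CYP17A1, the 17-alpha-hydroxylase that is needed for cortisol, was the low point among the synthetic enzymes measured, at 19.2 TPM and rank 5225. HSD3B1 stood 64.4 times, STAR 25.1 times and CYP11A1 7.14 times above it. POR, the reductase that supplies CYP17A1 with electrons, was at 117 TPM. CYB5A, which favours the lyase reaction of CYP17A1, was at 71.4 TPM. TSPO, a mitochondrial outer-membrane protein, was at 96.1 TPM. SULT2A1, the sulfotransferase of adrenal androgens, was at 0.0111 TPM, under the detection level.

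The enzymes that interconvert cortisol and cortisone were unequal. HSD11B2, which inactivates cortisol, was at 50.1 TPM, 127 times HSD11B1 at 0.395 TPM, the form that regenerates it. HSD11B1 was under the detection level, so the size of this ratio is uncertain. H6PD, which supplies HSD11B1 with its cofactor, was at 4.92 TPM. In all, 14 of 19 listed steroid symbols were found, in 15 rows that summed to 5998 TPM (0.60% of all TPM) with a median of 111 TPM. The symbols HSD3B2, CYP21A2, CYP21, CYP11B2 and AKR1B1 did not occur. CYP21A2 and CYP21 both name 21-hydroxylase, which was therefore not analysed here.

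**Figure D2:**
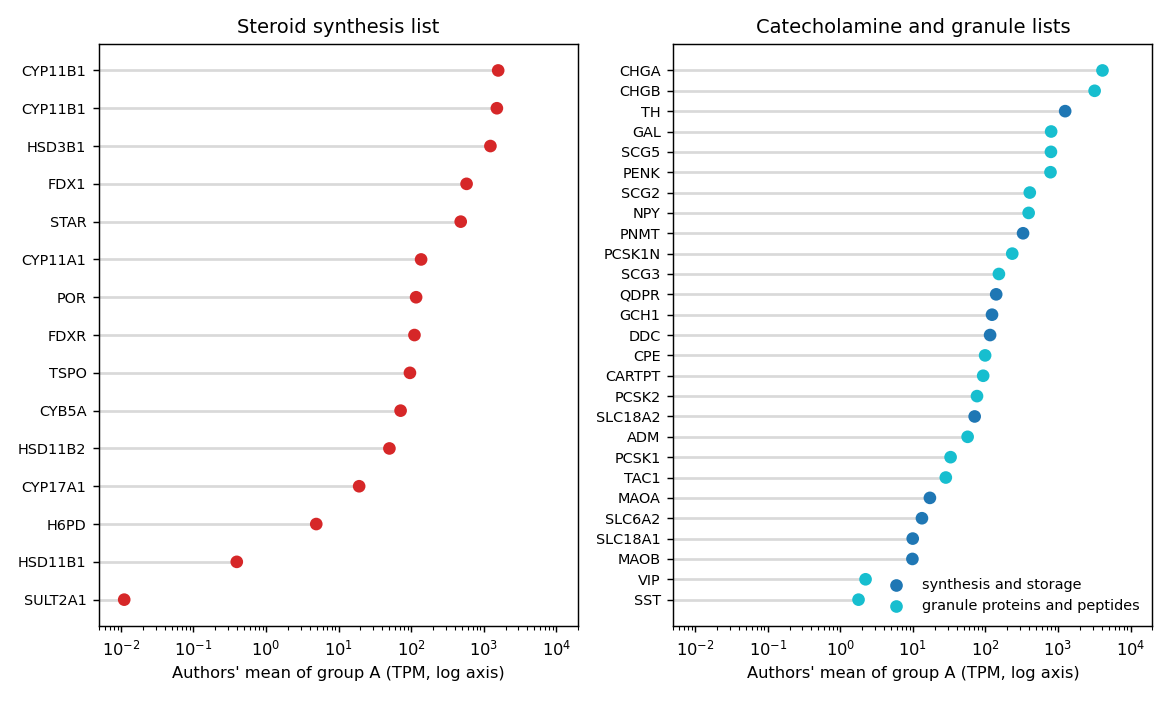
Authors' control mean (TPM, log axis) of each measured gene of the steroid synthesis list (left) and of the catecholamine and granule lists (right), 1 point per row. CYP11B1 occupies 2 rows at 1580 and 1516 TPM and CYP17A1 sits at 19.2 TPM, while CHGA and CHGB lead the medullary genes at 4096 and 3193 TPM.

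Genes that supply cholesterol were at moderate levels and all 26 that were found of 29 listed were detected, with a median of 24.7 TPM and a sum of 1422 TPM. APOE, a lipoprotein component that the cortex itself makes, led at 428 TPM. NPC2, which hands cholesterol on from lysosomes, was at 195 TPM, and SCARB1, a receptor that takes up high-density lipoprotein, at 137 TPM.

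The ACTH receptor MC2R was at 23.3 TPM, near CYP17A1 in the ranking. MRAP2, an accessory protein of melanocortin receptors, was at 3.23 TPM, and MRAP was not found under its symbol. The highest members of the ACTH and cyclic AMP list lay downstream of the receptor: GNAS, which encodes the stimulatory G protein subunit, at 516 TPM, and PRKAR1A, a regulatory subunit of protein kinase A, at 264 TPM. AKAP12, a kinase-anchoring protein, and the regulatory subunit PRKAR2B followed at 59.9 and 58.4 TPM. A separate list of hormone receptors, 7 of them measured, leaves out MC2R, AGTR1, IGF1R and IGF2R, which all stood higher. Within that list the glucocorticoid receptor NR3C1 was highest, at 9.29 TPM. GHR, the growth hormone receptor, was at 7.32 TPM and INSR, the insulin receptor, at 6.39 TPM.

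Transcription factors of the cortex differed widely. NR4A1, an inducible orphan nuclear receptor, was highest at 443 TPM. CITED2, a co-activator needed for adrenal development in the mouse, was at 81.6 TPM, NR5A1 (steroidogenic factor 1), the factor that specifies steroidogenic cells, at 67.5 TPM and NR4A2 at 64.4 TPM. NR0B1 (DAX-1), the repressor that opposes NR5A1, was at 3.07 TPM, 22 times lower than NR5A1. GATA6 was 21.4 times GATA4, at 23.9 against 1.12 TPM. WT1, a factor of the early adrenogonadal primordium, was at 1.0 TPM, and 4 of the 18 listed factors were under 1 TPM. Of 15 genes of the outer cortex and capsule that were found, 12 were detected, with a median of 14.1 TPM. AGTR1, the angiotensin receptor that drives aldosterone output, was at 150 TPM, 27.2 times AGTR2. CTNNB1, which encodes beta-catenin, was at 106 TPM, VSNL1, a calcium sensor of the human zona glomerulosa, at 96.7 TPM, DAB2, an endocytic adaptor of that zone in rodents, at 47.9 TPM and RSPO3, a WNT potentiator of the mouse capsule, at 40.9 TPM. The hedgehog target GLI1 was low at 3.62 TPM, and GLI2, RSPO1 and RSPO2 were under 1 TPM, at 0.883, 0.559 and 0.383 TPM.

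With granule proteins and peptides counted, medullary transcripts summed to more than those of steroid synthesis. The catecholamine and granule lists together held 13340 TPM (1.33% of all TPM), 2.22 times the steroid list, and most of this came from granule proteins. The ratio covers the symbols found, 27 of 34 medullary and 14 of 19 steroid symbols. The catecholamine list alone, without granule proteins and peptides, held 2084 TPM, less than the 5998 TPM of the steroid list. The direction of the comparison thus depended on counting the granule list. TH, tyrosine hydroxylase, the rate-limiting enzyme of catecholamine synthesis, was at 1254 TPM and rank 124, next to HSD3B1 at rank 125. PNMT, which converts noradrenaline to adrenaline, was at 330 TPM, so that TH stood 3.80 times above it. DDC, which makes dopamine, was at 116 TPM. GCH1 and QDPR, which make and recycle the tetrahydrobiopterin that TH needs, were at 123 and 141 TPM. DBH, the enzyme between dopamine and noradrenaline, was not found under its symbol.

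The vesicular transporter SLC18A2 was at 71.0 TPM, 7.14 times its relative SLC18A1 at 9.94 TPM. SLC6A2, the noradrenaline reuptake transporter, was at 13.3 TPM. The monoamine oxidases MAOA and MAOB, which break catecholamines down, were at 17.2 and 9.84 TPM. In all, 10 of 14 listed catecholamine genes were found, with a sum of 2084 TPM and a median of 93.4 TPM.

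The granule list, 17 of 20 genes, summed to 11257 TPM with a median of 153 TPM. After CHGA and CHGB came SCG5, a chaperone of prohormone convertase, at 798 TPM, SCG2 at 408 TPM and SCG3 at 153 TPM, both granins. Neuropeptide transcripts were abundant. GAL, which encodes galanin, was at 803 TPM, PENK, the enkephalin precursor, at 787 TPM and NPY, neuropeptide Y, at 394 TPM. CARTPT, another peptide precursor, was at 93.0 TPM, the vasodilator peptide ADM at 56.8 TPM, and TAC1, the precursor of substance P, at 28.4 TPM. VIP and SST, the precursors of vasoactive intestinal peptide and somatostatin, were near the detection level at 2.23 and 1.78 TPM. Of the enzymes that cut and trim such precursors, PCSK2 was at 76.4 TPM, 2.31 times PCSK1 at 33.1 TPM, and CPE, carboxypeptidase E, was at 98.9 TPM. PCSK1N, an inhibitor of PCSK1, exceeded both convertases at 234 TPM.

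Neural crest factors accompanied these genes. HAND2, a sympathoadrenal basic helix-loop-helix factor, was at 591 TPM, 76.5 times HAND1. PHOX2A, which specifies noradrenergic cells, was at 130 TPM, GATA3 at 65.7 TPM and EPAS1, a hypoxia-responsive factor expressed in chromaffin cells, at 56.7 TPM. Neuronal markers were detected in 15 of 15 found, led by STMN2, a microtubule regulator of growing neurites, at 1336 TPM. UCHL1, a neuronal ubiquitin hydrolase, was at 433 TPM, GAP43, a growth-cone protein, at 158 TPM and SYP, a synaptic vesicle protein, at 63.7 TPM. Chromaffin cells share several of these neuronal genes. All 13 Schwann cell and glial genes found were detected too, with S100B at 197 TPM, FABP7, a lipid carrier of glial precursors, at 90.9 TPM, PMP22, a myelin protein, at 53.1 TPM and NGFR, a neurotrophin receptor, at 42.7 TPM. SOX10, which specifies this lineage, was at 11.5 TPM.

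Connective tissue genes were abundant. All 27 fibroblast and matrix genes found were detected, with a sum of 8363 TPM, of which MGP alone held 4885 TPM, 9.10 times the next gene SPARC, a matrix glycoprotein, at 537 TPM. The collagen chain COL1A1 was at 467 TPM and the filament protein VIM at 446 TPM. Pericytes and smooth muscle were represented by RGS5, a pericyte regulator of G protein signalling, at 221 TPM, and by the contractile genes ACTA2, TAGLN and TPM2 at 200, 172 and 70.1 TPM. All 19 endothelial genes found were detected. EGFL7, a secreted endothelial protein, was at 159 TPM, PLVAP, which forms the diaphragms of fenestrated vessels, at 135 TPM, CD34 at 55.7 TPM and EMCN, an endothelial sialomucin, at 49.0 TPM.

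Blood cells were represented unevenly. Of 15 macrophage genes, 2 were under 1 TPM. The signalling adaptors FCER1G and TYROBP were at 70.7 and 68.3 TPM and the complement chains C1QB and C1QC at 42.9 and 40.5 TPM. Of 11 neutrophil genes, 8 were under 1 TPM, with MMP8 listed at 0 and MPO at 0.0679 TPM. The other 3 were the calcium-binding proteins S100A9, S100A12 and S100A8, at 26.1, 11.6 and 7.64 TPM, while MMP9 was at 0.996 TPM. Lymphocyte genes were low, with 9 of 17 under 1 TPM and the T-cell receptor chain CD3E highest at 7.39 TPM, followed by NKG7 at 6.52 TPM and LCK at 3.97 TPM. Red-cell genes summed to 150 TPM over 13 genes, 6 of them under 1 TPM. CA2, a carbonic anhydrase that is not specific to red cells, led at 89.4 TPM, and AHSP, which stabilises alpha-globin, was at 21.3 TPM, ahead of HBQ1 at 11.6 TPM and the transferrin receptor TFRC at 8.80 TPM. The main globins were not found under the symbols listed, so the share of blood RNA was not measured.

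Markers of tissues next to the gland were low except for fat. Of 13 kidney genes, 12 were under 1 TPM, UMOD and SLC22A8 were listed at 0, and PAX8 was highest at 3.18 TPM. Of 15 liver genes, 8 were under 1 TPM. APOA1 was at 63.3 TPM, TF at 11.5 TPM, TTR at 4.69 TPM and FGB at 2.93 TPM, whereas ALB, albumin, was at 1.42 TPM. Of 9 gonadal genes, 6 were under 1 TPM, including the germ-cell gene DDX4 at 0.868 TPM. INHA, an inhibin subunit that the adrenal cortex also makes, was at 39.7 TPM, INHBA at 9.13 TPM and SOX9 at 6.83 TPM. Adipose genes differed from these lists, with 1 of 10 under 1 TPM. FABP4, a lipid carrier of fat cells that endothelium also expresses, was at 241 TPM, ADIPOQ, the adipokine adiponectin, at 25 TPM, LPL, lipoprotein lipase, at 12.7 TPM, PPARG at 10.5 TPM and UCP1, the uncoupling protein of brown fat, at 2.27 TPM.

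**Figure D3:**
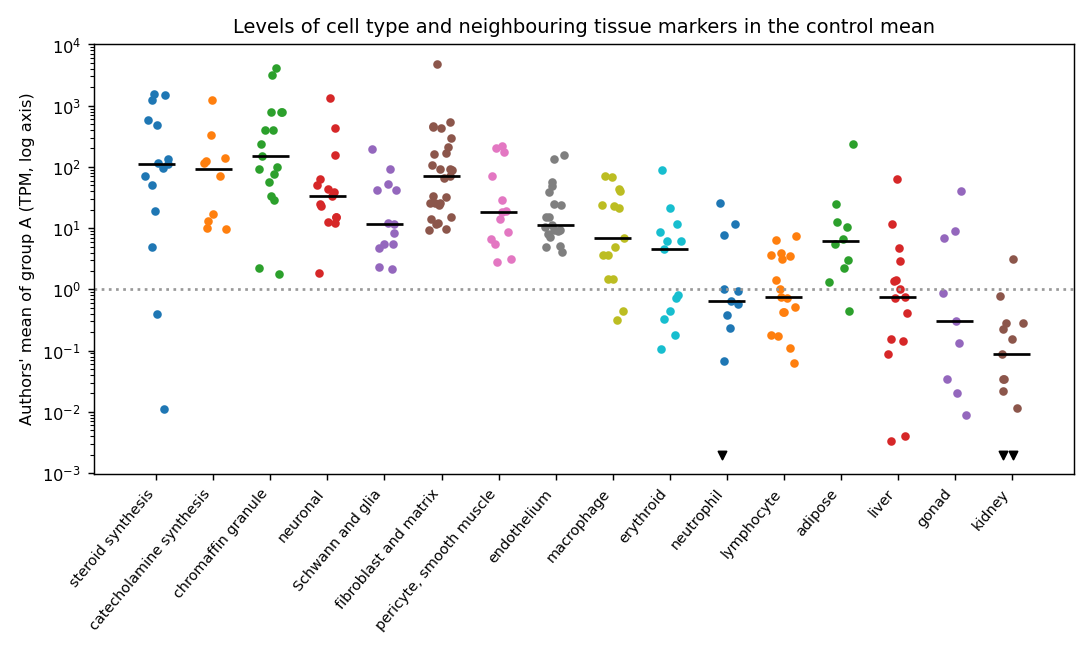
Authors' control mean (TPM, log axis) of each measured gene of 16 marker lists, 1 point per row, with the list median as a bar, the 1 TPM level as a dotted line, and genes listed at 0 as black triangles at the bottom. Medians of the steroid, catecholamine and granule lists lie between 93.4 and 153 TPM, and those of the neutrophil, lymphocyte, liver, gonad and kidney lists lie under 1 TPM.

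Of 17 growth factor, binding protein and imprinted genes found, 16 were detected, with a median of 89.6 TPM and a sum of 4625 TPM. IGFBP7, a binding protein of the insulin-like growth factors, was at 1119 TPM, PEG10, a paternally expressed imprinted gene, at 845 TPM, DLK1, an imprinted membrane protein of the fetal adrenal, at 785 TPM and IGF2, the fetal growth factor, at 624 TPM, 100.07 times IGF1 at 6.23 TPM. The receptors IGF1R and IGF2R were at 17.2 and 19.9 TPM, and the binding protein IGFBP1 was at 0.219 TPM. All 20 cell-cycle genes found were detected, led by the replication clamp PCNA at 95.1 TPM, CCND2, a G1 cyclin, at 91.4 TPM, UBE2C, a mitotic ubiquitin-conjugating enzyme, at 69.8 TPM and BIRC5, survivin, at 43.4 TPM. Antioxidant genes were abundant, with 22 genes summing to 7923 TPM. After FTH1 came MGST1, a microsomal glutathione transferase, at 777 TPM, TXN, thioredoxin, at 659 TPM and the peroxidase PRDX1 at 494 TPM. Immediate early genes, which respond within minutes to stimulation and handling, summed to 2028 TPM over 17 genes. BTG2, an antiproliferative early gene, was at 365 TPM, the transcription factors JUNB and EGR1 at 359 and 272 TPM, and the phosphatase DUSP1 at 267 TPM. NR4A1, counted above with the cortex, is also an immediate early gene.

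The 5 libraries gave a closely similar ranking at the top and differed more among low IDs. In every library the same ID, ENSBTAG00000025666.3, was highest, at 21875, 27247, 21136, 23183 and 30596 TPM in controls 1 to 5, or 24807 TPM ± 4006 (SD, n = 5). The ID with the next highest mean, ENSBTAG00000019701.2, was at 8321, 9057, 8242, 7951 and 11686 TPM in controls 1 to 5, or 9051 TPM ± 1528 (SD, n = 5). Control 5 was highest for both. The symbols of these IDs were not paired in the files. Of the 20 highest IDs of each library, 16 were shared by all 5 libraries, out of 26 IDs that appeared in any of these lists, and of the 100 highest, 85 were shared out of 126.

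The 100 highest IDs held 32.8% ± 3.31 (SD, n = 5) of each library's TPM, and the 1000 highest held 63.2% ± 2.99 (SD, n = 5). The share of the 100 highest lay between 30.3 and 37.8%, with control 5 the most concentrated. In control 5, 262 IDs made up 50% of the TPM, against a median of 443 over the 5 libraries and a maximum of 475 in control 3. Measured in CPM instead of TPM, the 100 highest IDs held 17.3% ± 1.30 (SD, n = 5). The 100 highest by TPM were short: their median effective length, relative to the other IDs of a library, was 0.198, against 1.03 for all detected IDs. TPM divides by length, and short transcripts therefore weigh more in it than in counts.

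The spread between libraries depended on the level of an ID. The 14547 IDs that averaged 1 TPM or more had a median SD of log2(TPM + 1) of 0.280 over the 5 libraries, with quartiles at 0.188 and 0.403. In the range from 1 to 10 TPM, 4729 IDs had a median coefficient of variation of 31.5%. It was 18.1% for 8268 IDs from 10 to 100 TPM, 12.2% for 1425 IDs from 100 to 1000 TPM and 14.8% for 125 IDs of 1000 TPM or more. In edgeR's fit of the rounded counts, which removes counting noise, the common biological coefficient of variation was 26.0% and its median per ID 21.8%.

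Control 5 accounted for much of the spread in TPM. Among 9818 IDs that averaged 10 TPM or more, it was the lowest library in 4988, and control 3 was the highest in 3390. The position of control 5 depended on transcript length: its median deviation from the mean of an ID was -0.027 on the log2 scale in the shortest of 4 length classes of IDs and -0.354 in the longest. Control 3 leaned the opposite way, from -0.022 to 0.203. In the other 3 libraries the longest class differed from the shortest by between -0.0084 and 0.064. In CPM with TMM factors rather than TPM, control 5 was lowest in 1882 of the 9818 IDs. An even share of these IDs is 1963.6 per library. Without control 5 the median SD over detected IDs was 0.232 instead of 0.280. After the median of each library in 20 bins of length was subtracted, a step chosen after seeing the data, the median SD over all 5 libraries was 0.228. What set the dependence on length was not tested.

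**Figure D4:**
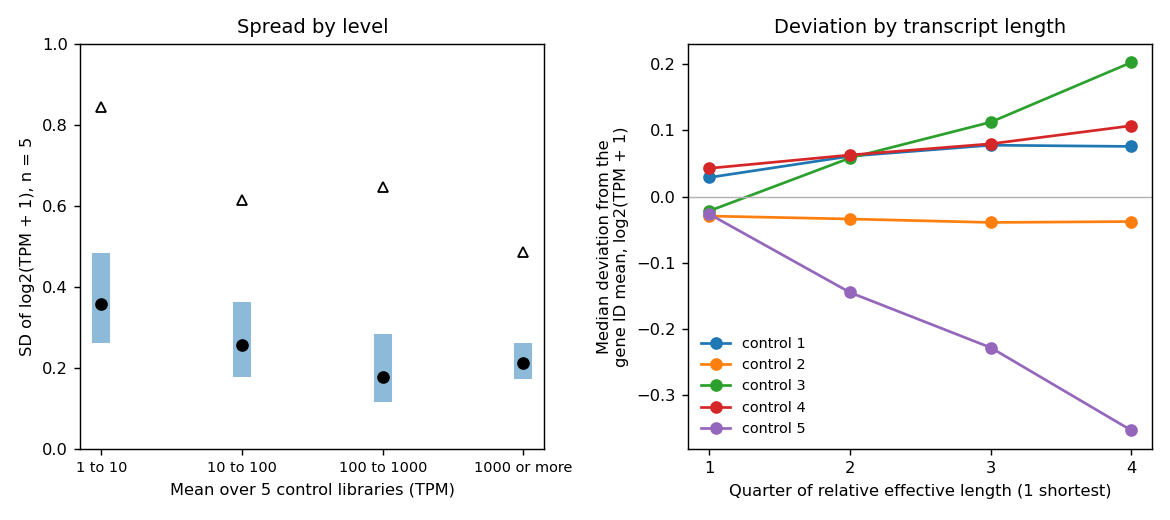
Left, SD of log2(TPM + 1) over the 5 control libraries by mean level of the ID, with the median as a dot, the quartiles as a bar and the 95th percentile as a triangle; right, median deviation of each library from the ID mean by class of relative effective length (4 classes of equal size). The median SD falls from 0.357 at 1 to 10 TPM to 0.176 at 100 to 1000 TPM, and control 5 drops to -0.354 in the class of the longest IDs.

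Few IDs stood far above the other libraries in 1 library. With at least 5 TPM in a library and at least 20 times the highest of the other 4, there were 20 such IDs in all: 10 in control 5, 8 in control 4, and 1 each in controls 1 and 3. Those of control 5 summed to 1483 TPM in that library, most of it from ENSBTAG00000039914.2, at 0.616, 0.341, 0.316 and 0.513 TPM in controls 1 to 4 and 1224 TPM in control 5. The ID with the next largest spread, ENSBTAG00000019813.4, was at 0.0326, 31.4, 0.292, 11.7 and 168 TPM in controls 1 to 5, so that it was under 1 TPM in 2 libraries and over 10 TPM in the other 3. Of the 100 IDs with the largest SD, 33 were highest in control 5 and 22 in control 4.

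For named genes, the authors' deposited table offers a view of the spread through the standard error of its log2 fold change, which pools the 5 control and the 5 endotoxin libraries and so does not measure the controls alone. In the authors' deposited table its median was 0.204 on the log2 scale over rows of at least 1 TPM, with 5% of rows above 0.535. The steroid, catecholamine and granule lists lay above it, with medians of 0.294, 0.310 and 0.343 in the authors' deposited table. Among cortical genes, the authors' deposited table gave STAR 0.294, HSD3B1 0.298, CYP11A1 0.352, FDX1 0.392 and the CYP11B1 rows 0.347 and 0.383. CYP17A1 was less certain, with a standard error of 0.724 in the authors' deposited table. Among medullary genes CHGA, TH and CHGB had 0.242, 0.259 and 0.279 in the authors' deposited table, while PNMT had 0.726, CARTPT 0.763, SLC6A2 0.936 and NPY 1.29.

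Adipose genes had the largest standard errors of any list, with a median of 1.14 and 7 of 9 detected genes above 0.535 in the authors' deposited table. UCP1 had 2.36, ADIPOQ 1.78, PLIN1, a lipid-droplet protein, 1.29 and FABP4 1.14 in the same authors' deposited table. The median was 0.432 for 13 Schwann cell and glial genes and 0.371 for 15 neuronal genes in the authors' deposited table, with 3 neutrophil genes at 0.415 and 8 lymphocyte genes at 0.379 between them. The cholesterol and immediate early lists had medians of 0.367 and 0.365, with 7 of 26 and 6 of 17 genes above 0.535 in the authors' deposited table. Endothelial genes had a median of 0.212, cell-cycle genes 0.19 and antioxidant genes 0.184, close to all detected rows, in the authors' deposited table. Which libraries carried these errors was not tested, since named genes have no value per library.

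**Figure D5:**
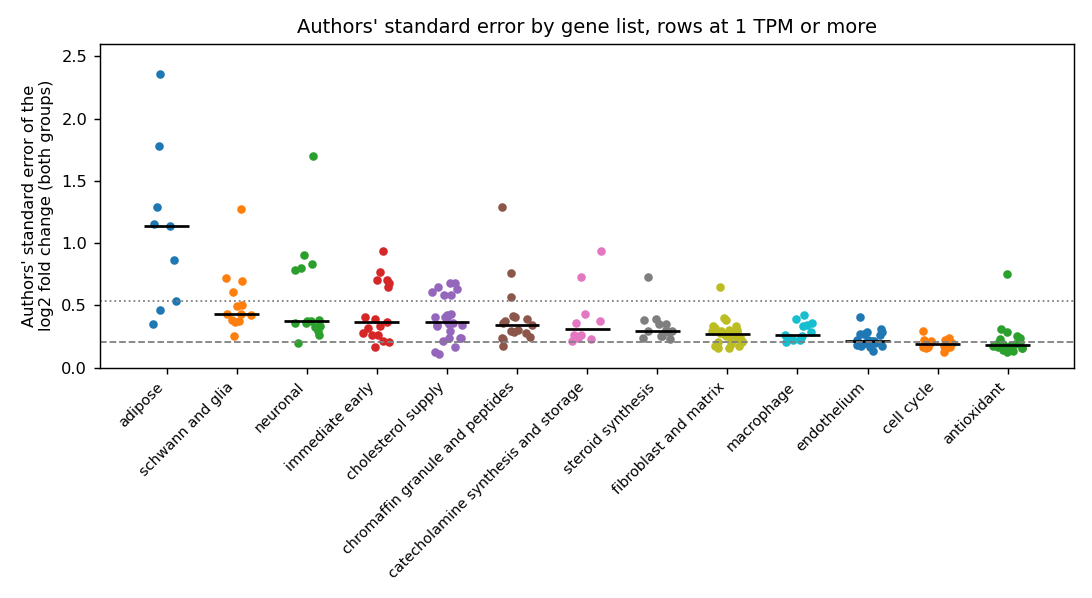
Standard error of the log2 change as given in the authors' deposited table, pooling both groups, for the rows of at least 1 TPM of 13 gene lists, 1 point per row with the list median as a bar. The dashed line marks the median of all detected rows, 0.204, and the dotted line their 95th percentile, 0.535, and adipose genes reach 2.36 while cell-cycle genes lie near the dashed line.

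The labelled sex of the control fetuses was the only difference within the group that could be tested. By edgeR's quasi-likelihood test of the 2 male against the 3 female libraries, with Benjamini-Hochberg adjustment, 0 of 15153 IDs passed an adjusted p of 0.05 (0% called), and 416 (2.75%) had an unadjusted p under 0.05. DESeq2 called 13 of 15632 IDs, 3 of them higher in males. Of these 13, 2 stood more than 5-fold above every other library in control 5, a female library. Without control 2, which leaves 1 male library whose spread is assumed to be that of the females, edgeR called 20 IDs, 19 of them higher in the male. Without control 4, which leaves control 2 as the only male library, edgeR called 0 IDs at the same adjusted p and 770 had an unadjusted p under 0.05, so the calls were made with control 4 as the only male. For a single value, exact permutation of 3 against 2 libraries cannot go below p = 0.1, so a missed threshold does not show that the sexes were alike.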

How the data were processed

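Per the labels' protocols, adrenal RNA was made into strand-specific libraries. The tools listed without role or setting in the submitters' processing notes are Salmon (0.9.1), fastp (0.19.4) and DESeq2, and the build is Oar_v3.1 of the sheep. Per-library IDs are of the cattle form, whereas rows without a symbol carry transcript IDs of the sheep form. Whether the per-library values rest on the sheep build was not tested, so their detection and length results may not be those of a sheep annotation. The authors deposited TPM and estimated counts per library for 20781 IDs, and a table of 19316 rows with the authors' group mean TPM and the standard error of a log2 fold change. No ID of the per-library tables matched the gene table at hand, so symbols were never assigned to them. Headers of the comparison table name the groups only A and B. The series title states that cortisol synthases are high after inflammation, and these were higher in B, so A was read as control. Levels of cortisol synthesis genes thus entered the choice of A. Changes of at least 4-fold were also mostly higher in B (34 rows against 7 higher in A). In the labelled TPM they were mostly higher in endotoxin (40 IDs against 8). Estimated counts were rounded for edgeR 4.0.16 (TMM, filterByExpr) and DESeq2 1.42.0 under R 4.3.3, and other steps used Python with numpy and pandas. Spread over IDs is the SD of log2(TPM + 1), and an SD after ± is in the unit of its mean. Effective length was taken as counts over TPM, scaled within a library. The genes named are the 20 highest rows with a symbol, every measured gene of the steroid, catecholamine and granule lists, and the 4 highest of each other list; a few genes that this rule names are not reported here, and other genes named were chosen after their values were seen. For IDs, the 2 highest and the 2 with the largest SD are named. The members and lists were chosen with earlier results of these data known. No sequence is printed.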

Additional observations from a re-analysis of the deposited data

Results flagged for a closer look

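In 4 of 27 sets of 5 control values examined, 1 library lay so far from its nearest neighbour that the gap exceeded 0.71 of the whole range. Chance gives this in about 1 of 20 sets of independent, normally distributed values. The sets examined overlap and some hold IDs chosen for extreme values, so the 4 cannot be set against that rate. ENSBTAG00000039914.2 was at 1224 TPM in control 5, a gap of 0.99975 of the range. ENSBTAG00000019813.4 was at 168 TPM in control 5, a gap of 0.813 of the range. Both IDs were named for the size of their spread, a choice that favours such a gap. The TPM held by IDs that stood at least 20 times above the other libraries was 1483 in control 5, a gap of 0.906 of the range. ENSBTAG00000039914.2 makes up most of that sum, which is taken over IDs chosen for standing apart. The number of IDs at 0 was 4068 in control 3, a gap of 0.788 of the range, and control 3 had the fewest counts, 12494386. No other set examined had a gap of that size.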

How the results depend on the processing

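The share of TPM in the 100 highest IDs, 32.8%, was 17.3% in CPM, and it was 8.88% for the 10 and 63.2% for the 1000 highest IDs. The ratio of the medullary to the steroid sum, 2.22, was 3.19 without CHGA and both CYP11B1 rows, 2.75 when TH was also left out (chosen after seeing the data) and 2.98 with 1 row per symbol. The median SD over libraries, 0.280, was 0.309 with a pseudocount of 0.1, 0.207 with 5, 0.263 without a filter, 0.244 from 10 TPM up and 0.247 as CPM with TMM factors. It was 0.228 after subtracting medians in 20 length bins, an alternative chosen after seeing the data, and between 0.232 and 0.292 with 1 library left out, lowest without control 5. The median correlation, 0.982, was 0.976 with a pseudocount of 0.1, 0.963 from 1 TPM up and 0.986 as log2(CPM + 1). The count of 20 IDs far above the other libraries was 32 at 10-fold, 16 at 50-fold and 15 in CPM. The sex test called 0 IDs with edgeR, 13 with DESeq2 and between 0 and 20 with 1 library left out. IDs detected in all 5 libraries numbered between 10679 and 14309 over the alternatives. The cause of these shifts was not tested. No paired analysis was possible because no comparison with the endotoxin libraries was made, and controls are the only group described. Named genes have a group mean only, so leaving out a library could not be applied to them.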
